A study of Homo sapiens with 12 samples.

Results

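ABC transporters are proteins with an ATP-binding cassette, the domain that couples the splitting of ATP to movement of a substrate across a membrane. The genes described here are the protein-coding genes whose symbol is ABC, a letter of A to G and a number, with at least 10 counts summed over all libraries. Of 45 such genes in the annotation, 37 met that limit, out of 58735 gene identifiers in the count table. By symbol, 13 of them were lipid exporters (the ABCA genes and ABCG1), 8 were drug efflux pumps (the ABCC genes and ABCG2), 9 were transporters of mitochondria, peroxisomes or lysosomes, 4 were soluble proteins of translation and 3 had other roles.

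RNA came from OCI-AML2, an established human acute myeloid leukemia line. Cells were infected with a lentivirus that carried the guide sgUTX_2 or sgUTX_4, both directed at KDM6A, the gene of the histone demethylase UTX, or the control guide sgLuc. For 6 days they were kept in DMSO or in 1 µM SGC0946, which blocks DOT1L, the enzyme that methylates histone H3 at lysine 79. The 12 libraries formed 6 groups of 2 each: sgUTX_2 with SGC0946, sgUTX_4 with SGC0946, sgLuc with SGC0946, sgUTX_2 with DMSO, sgUTX_4 with DMSO and sgLuc with DMSO. The labels give 1 genotype for both sgUTX guides (UTX knockout) and wild type for sgLuc, so that tests set 4 sgUTX libraries against 2 sgLuc libraries in each treatment. A single cell line was used. Whether the libraries of 1 group are separate cultures is not said in the labels, so that every p-value here reflects variation among libraries that could be technical only.

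In myeloid cells ABCA1 and ABCG1 carry cholesterol and phospholipid to apolipoprotein A-I and to high-density lipoprotein, and the oxysterol receptors (LXR), bound to DNA with RXR, switch both genes on. ABCB1, ABCC1 and ABCG2 pump out drugs and are studied in leukemia for resistance to chemotherapy. Members of the ABCB and ABCD branches work in organelles, where they serve iron-sulfur cluster and heme synthesis and carry fatty acids into peroxisomes, while ABCE1 and the ABCF proteins have no membrane part and act on ribosomes.

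Promoter sequences were taken from RefSeq (GRCh38.p14, 250 bases before to 50 after the start), where 29 of the 37 genes matched. ABCA4, ABCA8, ABCB4, ABCC1, ABCC3 and ABCG1 were among those with no entry. Those of ABCA1, ABCA7 and ABCF1 are shown because these genes carry the lipid and translation results below. Each is printed 5′ to 3′ on its own strand, ABCA1 from chr9:104928106-104928405 on the minus strand, ABCA7 from chr19:1039857-1040156 on the plus strand and ABCF1 from chr6:30571192-30571491 on the plus strand. Capitals mark, in ABCA1, CACGTG (an E-box) and the letters that match AGGTNA, a gap of 4 bases of any kind and NGGTCA, a direct repeat of the kind bound by LXR with RXR, read on the opposite strand. In ABCA7 they mark GGGCGG (a GC box), and in ABCF1 CACGTG and GGGCGG.
ABCA1: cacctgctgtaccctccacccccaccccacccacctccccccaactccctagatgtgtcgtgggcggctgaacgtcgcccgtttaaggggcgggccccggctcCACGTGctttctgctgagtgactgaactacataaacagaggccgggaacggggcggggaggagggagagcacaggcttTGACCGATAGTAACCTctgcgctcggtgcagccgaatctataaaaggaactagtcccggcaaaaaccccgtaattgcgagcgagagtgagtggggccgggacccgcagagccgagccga
ABCA7: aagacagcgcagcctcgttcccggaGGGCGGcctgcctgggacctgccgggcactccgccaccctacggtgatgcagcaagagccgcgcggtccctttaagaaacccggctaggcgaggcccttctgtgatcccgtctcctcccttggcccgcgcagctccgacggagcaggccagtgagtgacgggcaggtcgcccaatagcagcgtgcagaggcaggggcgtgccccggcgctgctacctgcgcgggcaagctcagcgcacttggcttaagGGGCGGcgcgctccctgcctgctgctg
ABCF1: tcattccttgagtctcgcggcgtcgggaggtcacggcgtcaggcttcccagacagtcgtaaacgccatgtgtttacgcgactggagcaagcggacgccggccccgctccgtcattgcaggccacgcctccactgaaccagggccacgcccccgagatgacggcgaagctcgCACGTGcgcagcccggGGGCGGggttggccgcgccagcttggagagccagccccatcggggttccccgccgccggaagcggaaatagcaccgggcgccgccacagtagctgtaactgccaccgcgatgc
No capitals overlap. Searched on both strands, the direct repeat was found in 0.094% of 35116 RefSeq promoters of this length and, among the 29 genes, in ABCA1 only. The letters left open (N) in its repeated parts are those at which these parts of the ABCA1 site differ. A match in ABCA1 was thus given by the pattern, and repeats that vary at other letters were not sought. These counts therefore cannot show that the repeat sets ABCA1 apart. ABCG1, with no entry, was not searched. The 29 genes had 42 promoters in all. CACGTG was in 7.26% of all promoters and in 9 of these 42 (8 genes). GGGCGG was in 45.0% and in 23 of the 42 (19 genes), and TATAAA in 11.5% and in 8 of the 42 (8 genes). The ABCA1 window also held TATAAA and 3 copies of GGGCGG. A match describes letters in these windows and not a bound site.

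KDM6A, the targeted gene, had 14.4 and 15.9 CPM in sgUTX_2, 43.2 and 48.9 CPM in sgUTX_4 and 35.1 and 34.5 CPM in sgLuc cells with SGC0946, where CPM is the gene's counts per unit of TMM-scaled library size. With DMSO it had 14.7 and 15.6 CPM in sgUTX_2, 49.4 and 46.2 CPM in sgUTX_4 and 32.05 and 27.9 CPM in sgLuc cells. Its transcript was thus below the sgLuc libraries with sgUTX_2 and above them with sgUTX_4. Insertions and deletions made by a guide need not lower a transcript, so these values cannot show whether UTX protein was lost, and directions below are those of libraries labelled as UTX knockout, called sgUTX. Total counts per library lay between 15480493 and 23262141. The 8 myeloid markers were found in every library, and their summed level was 4956 to 6888 CPM in sgUTX and 12136 to 12344 CPM in sgLuc cells with SGC0946, against 1660 to 2028 and 2119 to 2292 CPM with DMSO. LYZ alone ran from 244 to 9453 CPM over the libraries, and no other of these markers exceeded 1014 CPM. CD33 ran from 46.6 to 80.3 CPM, so the sum does not show a rise of all 8 markers. MS4A1, HBA1 and PF4, which mark B, erythroid and megakaryocyte cells, were at 0 in all libraries. The 3 T cell markers summed to 0.164 to 0.623 CPM in sgUTX and 8.54 to 8.93 CPM in sgLuc cells with SGC0946, and to at most 0.175 CPM in sgUTX and 2.18 CPM in sgLuc cells with DMSO. The 3 fibroblast markers summed to 1.83 to 4.31 CPM in sgUTX and 4.99 to 6.04 CPM in sgLuc cells with SGC0946, against 0.0877 to 1.51 CPM and 0.303 to 0.809 CPM with DMSO. Ribosomal protein genes took 10.97 to 12.12% of counts in sgUTX libraries of either treatment, 12.9 to 13.1% in sgLuc libraries with SGC0946 and 17.7 to 18.9% in sgLuc libraries with DMSO. The part of these differences in the results below was not tested, except by the scaling to library size given with the counts. In bulk RNA, fewer cells of a type and less RNA per cell cannot be told apart.

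Per kilobase of exon, the family was led by genes of organelles and ribosomes and not by the known drug pumps. ABCB10, a mitochondrial transporter needed for heme synthesis, averaged 49.9 RPKM (CPM per kilobase) over the 12 libraries and stood first in each of the 6 groups. ABCE1, which splits ribosomes after termination, averaged 34.4 RPKM, and ABCF1, a factor of translation initiation, averaged 32.7 RPKM. These 2 exchanged places between groups, with 34.6 against 36.1 RPKM in sgUTX_2 cells and 25.2 against 22.1 RPKM in sgLuc cells, both with SGC0946. ABCF3 averaged 10.5 RPKM. At 8.82 RPKM, ABCC1 was the highest drug pump per kilobase, above ABCC4 at 7.72 and ABCC5 at 6.96 RPKM. ABCA2 was the highest lipid exporter at 5.51 RPKM, and ABCG1 at 2.30 and ABCA1 at 1.57 RPKM were lower in this order. In CPM, 21 of the 37 genes averaged at least 10, 4 lay from 1 to 10 and 12 lay under 1.

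**Figure D1:**
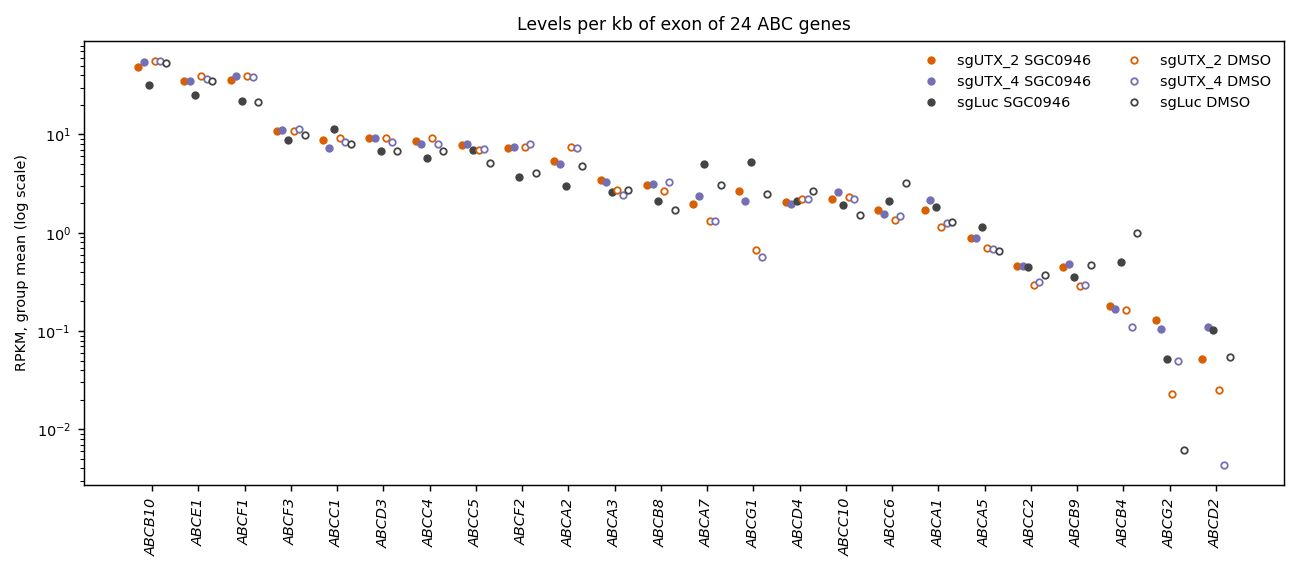
Group means per kilobase of exon (RPKM, log axis) of 24 ABC genes. Colours mark guides, filled points SGC0946 and open points DMSO. ABCB10 stood first in every group, and the 6 points of ABCG1 spread from 0.561 to 5.28 RPKM.

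ABCB1, the P-glycoprotein pump, had 0 counts in all 12 libraries, which hold 226332861 counts, as did ABCC12 and the potassium channel subunits ABCC8 and ABCC9. A count of 0 allows up to 3 counts, or 0.123 to 0.227 CPM per library, for counting error only. ABCG5 and ABCC11 had 5 counts each and ABCB5 and ABCG8 had 1 each, which left them under the limit for membership. Just inside it were ABCA8 with 10 counts and ABCA4 and ABCA9 with 11 each. Of the 37 genes, 28 passed the filter on low counts and were tested among 15060 genes. The 9 that did not were ABCA4, ABCA8, ABCA9, ABCA10, ABCA12, ABCB6, ABCB11, ABCC3 and ABCG4, with 10 to 26 counts each over all libraries. Counts given below therefore cover the genes tested and not the whole family.

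Against the background of the table, the number of ABC genes called lay near that of all genes between sgUTX and sgLuc cells and above it for SGC0946 in sgUTX cells. A gene was called when edgeR's quasi-likelihood test, adjusted by Benjamini-Hochberg over the 15060 genes, gave a p under 0.05. SGC0946 was followed by 11 higher and 3 lower genes of 28 in sgUTX cells, where 33.8% of all genes were called, 17.4% higher and 16.4% lower. The ABC shares were 39.3% higher and 10.7% lower, and the median log2 fold change was 0.12, against 0.00 over all genes. That excess was smaller in some subsets of the libraries. With the sgUTX_4 libraries only, 8 of 27 ABC genes were called (29.6%, background 28.4%), and without the first sgUTX_2 DMSO library 9 of 28 (32.1%, background 29.6%). In sgLuc cells the inhibitor gave 7 higher and 9 lower, 57.1% in all, with a background of 48.9%. Between sgUTX and sgLuc cells 12 were higher and 7 lower with SGC0946 (67.9%, background 56.9%), and 10 were higher and 8 lower with DMSO (64.3%, background 61%). The shares between sgUTX and sgLuc cells lie near the background and are no result about ABC genes. Called with at least a 2-fold change were 4 genes for SGC0946 in sgUTX cells (background 7.41%), 2 for SGC0946 in sgLuc cells (14.6%), 4 between sgUTX and sgLuc cells with SGC0946 (17.2%) and 4 with DMSO (20.4%). Among these genes, ABCA6, ABCD2 and ABCG2 passed the filter on low counts only through groups in which they were high. The comparisons share libraries, since the sgLuc DMSO libraries serve both the guide and the inhibitor comparison.

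The splits between higher and lower moved with the scaling. With library size only, without TMM factors, the median log2 fold change of all genes moved to 0.26 between sgUTX and sgLuc cells with DMSO and to 0.20 with SGC0946, against -0.01 and 0.01. The share of calls that were higher went up to 66.7% (47.1% with TMM) and 65.0% (48.6%), and ABC genes were then 13 higher and 6 lower with DMSO and 14 higher and 5 lower with SGC0946. For the inhibitor in sgLuc cells 60.9% of calls were then higher (50.6% with TMM), with 9 ABC genes higher and 7 lower.

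**Figure D2:**
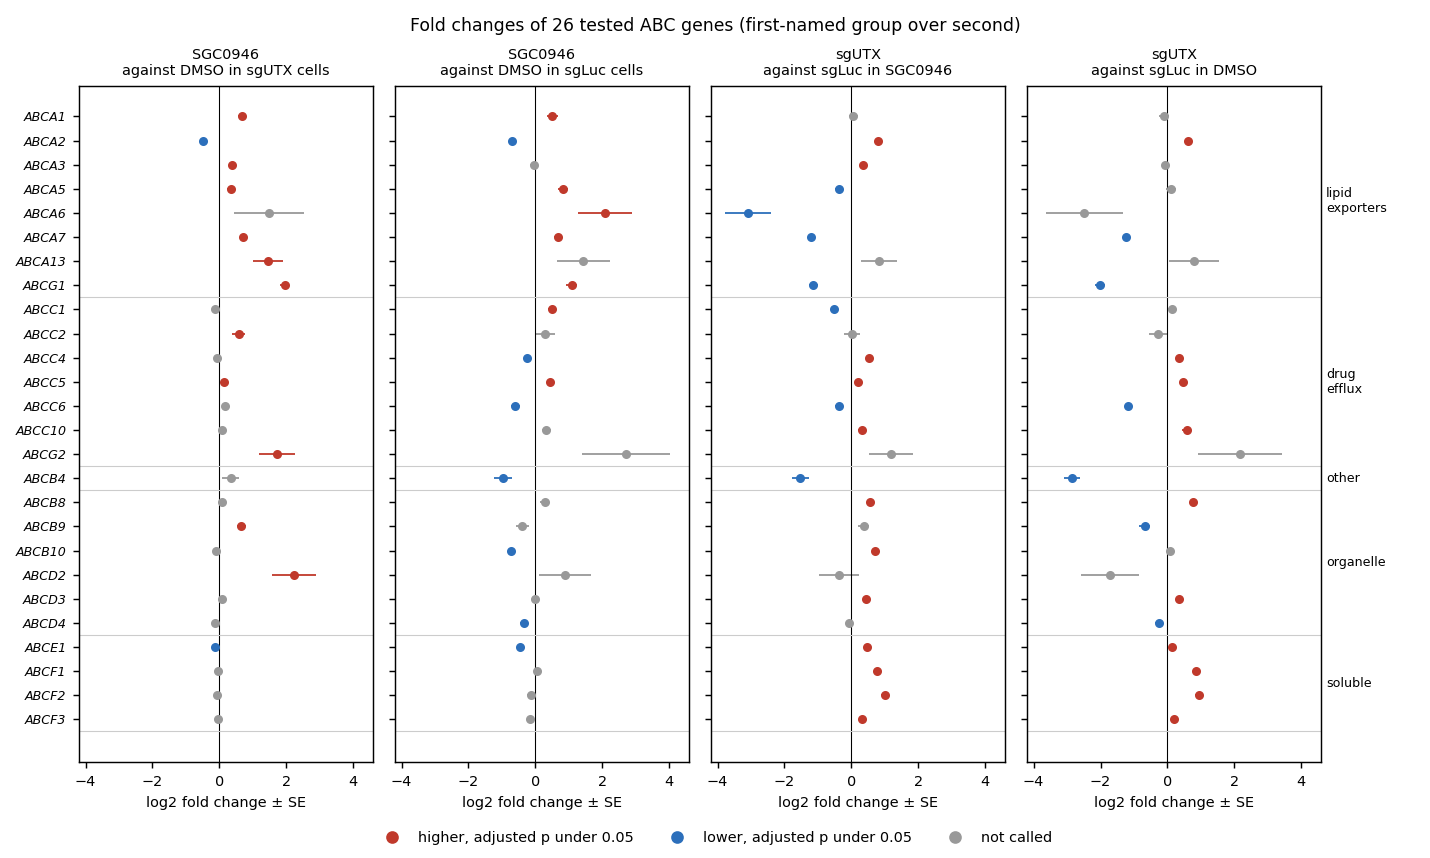
Log2 fold changes with their standard errors (horizontal axis) of 26 tested ABC genes, ordered by role, in 4 comparisons, first-named group over second. Red points were called higher, blue points lower and grey points were not called. The 4 soluble genes at the bottom are red in both comparisons of sgUTX with sgLuc, and 6 of the 8 lipid exporters at the top are red for SGC0946 in sgUTX cells.

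Most tested lipid exporters were higher with SGC0946, and the cholesterol exporter ABCG1 was lower in sgUTX cells. Of the 8 tested, SGC0946 raised 6 and lowered 1 in sgUTX cells, with a median log2 fold change of 0.70, and raised 5 and lowered 1 in sgLuc cells, with a median of 0.76. The median of all genes was 0.00 in each, with 17.4% of all genes higher in sgUTX cells and 24.7% in sgLuc cells. In sgUTX against sgLuc cells, 2 were higher and 4 lower with SGC0946 (median -0.16), where 27.7% of all genes were higher and 29.3% lower. With DMSO 1 was higher and 2 lower (37.5%, background 61%, median -0.09), where 28.7% of all genes were higher and 32.3% lower. ABCA2 was the exporter lowered by SGC0946 in both. ABCA6, counted among the 5 raised in sgLuc cells and the 4 lower in sgUTX cells, passed the filter through the treated sgLuc libraries only.

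ABCG1 (ENSG00000160179, chr21:42199689-42297244, plus strand) hands cholesterol to high-density lipoprotein. With SGC0946 its level was 14.9 and 17.8 CPM in sgUTX_2, 12.9 and 12.98 CPM in sgUTX_4 and 31.9 and 32.7 CPM in sgLuc cells. With DMSO it was 3.68 and 4.47 CPM in sgUTX_2, 2.81 and 4.05 CPM in sgUTX_4 and 14.5 and 16.1 CPM in sgLuc cells. The 4 sgUTX libraries lay below both sgLuc libraries in either treatment, and each guide's treated libraries lay above its DMSO libraries. SGC0946 raised ABCG1 3.88-fold in sgUTX cells (log2 fold change 1.96, SE 0.13, edgeR adjusted p = 6.40e-11) and 2.12-fold in sgLuc cells (1.08, SE 0.16, edgeR adjusted p = 5.36e-06). The responses differed by 0.88 on the log2 scale (SE 0.21, edgeR adjusted p = 0.00214). In sgUTX against sgLuc cells it was 2.19-fold lower with SGC0946 (-1.13, SE 0.13, edgeR adjusted p = 9.41e-08) and 4.03-fold lower with DMSO (-2.01, SE 0.16, edgeR adjusted p = 2.11e-10). These calls were kept under each alternative tried.

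ABCA1 (ENSG00000165029, chr9:104781002-104928237, minus strand), the exporter to lipid-poor apolipoprotein A-I whose promoter held the direct repeat above, was higher with the inhibitor, while its differences between guides did not pass the test. Its level was 20.7 and 18.1 CPM in sgUTX_2, 23.5 and 25.8 CPM in sgUTX_4 and 19.7 and 22.2 CPM in sgLuc cells with SGC0946. Libraries with DMSO had 11.4 and 14.8 CPM in sgUTX_2, 12.5 and 15.8 CPM in sgUTX_4 and 13.7 and 15.8 CPM in sgLuc cells. All treated libraries lay above all DMSO libraries, while sgUTX and sgLuc values overlapped within a treatment. SGC0946 raised it by 0.69 on the log2 scale in sgUTX cells (SE 0.11, edgeR adjusted p = 7.83e-05) and by 0.51 in sgLuc cells (SE 0.17, edgeR adjusted p = 0.0155). The sgLuc call was lost without the first sgLuc DMSO library (edgeR adjusted p = 0.140) or without the second sgLuc SGC0946 library (edgeR adjusted p = 0.118). The sgUTX over sgLuc difference was 0.06 with SGC0946 (SE 0.14, edgeR adjusted p = 0.719) and -0.11 with DMSO (SE 0.15, edgeR adjusted p = 0.539), neither past the test. The DMSO difference changed sign under scaling to library size (0.16), and the SGC0946 difference changed sign with the sgUTX_2 guide alone (-0.11).

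ABCA7 (ENSG00000064687, chr19:1040101-1065572, plus strand), a phospholipid exporter of phagocytic cells, had 16.3 and 16.6 CPM in sgUTX_2, 19.1 and 20.4 CPM in sgUTX_4 and 42.4 and 40.9 CPM in sgLuc cells with SGC0946. With DMSO the values were 9.97 and 11.97 CPM in sgUTX_2, 10.8 and 11.2 CPM in sgUTX_4 and 27.3 and 24.2 CPM in sgLuc cells. Every sgUTX library was below every sgLuc library of its treatment. It was 2.30-fold lower in sgUTX than in sgLuc cells with SGC0946 (log2 fold change -1.20, SE 0.099, edgeR adjusted p = 5.48e-10) and 2.34-fold lower with DMSO (-1.23, SE 0.11, edgeR adjusted p = 1.54e-09). The inhibitor raised it by 0.72 in sgUTX cells (edgeR adjusted p = 1.71e-06) and by 0.69 in sgLuc cells (edgeR adjusted p = 4.19e-05), a difference of 0.02 that did not pass the test (SE 0.15, edgeR adjusted p = 0.925).

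ABCA2, an endosomal lipid transporter, had 53.0 to 65.4 CPM in sgUTX and 33.4 to 35.7 CPM in sgLuc cells with SGC0946, against 73.4 to 94.1 and 53.9 to 56.9 CPM with DMSO, and was called higher in sgUTX and lower with SGC0946 each time. ABCA3, which loads surfactant lipid in lung, was called higher in sgUTX cells with SGC0946 (24.4 to 28.04 CPM) than in sgLuc cells (20.3 to 20.6 CPM). ABCA5, a lysosomal member, had 10.0 to 13.4 CPM in sgUTX and 14.9 to 15.5 CPM in sgLuc cells with SGC0946, and 8.54 to 9.82 and 8.40 to 8.71 CPM with DMSO. With SGC0946 it was called lower in sgUTX cells, a call lost under library-size scaling and without either sgLuc SGC0946 library.

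ABCA13 and ABCA6 passed the filter with few counts. ABCA13 (ENSG00000179869, chr7:48171458-48647496, plus strand) had 31 and 38 counts in sgUTX_2, 38 and 44 counts in sgUTX_4 and 21 and 14 counts in sgLuc cells with SGC0946. The DMSO values were 8 and 2 counts in sgUTX_2, 23 and 18 counts in sgUTX_4 and 8 and 3 counts in sgLuc cells. SGC0946 raised it in sgUTX cells by 1.47 on the log2 scale (SE 0.45, edgeR adjusted p = 0.0156), a call lost without the first sgUTX_2 DMSO library (1.28, edgeR adjusted p = 0.0562) and with the sgUTX_4 guide alone (0.99, edgeR adjusted p = 0.0668). ABCA6 (ENSG00000154262, chr17:69078702-69141888, minus strand) had 3 and 3 counts in sgUTX_2, 0 and 1 counts in sgUTX_4 and 11 and 15 counts in sgLuc cells with SGC0946. Libraries with DMSO had 0 and 1 counts in sgUTX_2, 0 and 1 counts in sgUTX_4 and 3 and 2 counts in sgLuc cells. The treated sgLuc libraries held most of its counts, and ABCA6 passed the filter through them alone. Calls in which that pair is high were thus favored by the filter and are no independent result. With this limit, ABCA6 was lower in sgUTX than in sgLuc cells with SGC0946 (log2 fold change -3.08, SE 0.68, edgeR adjusted p = 0.000516). Its rise with SGC0946 in sgLuc cells, 2.09 (SE 0.81, edgeR adjusted p = 0.0352), was lost with DESeq2, with no filter and without each of the 4 sgLuc libraries in turn.

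The other genes of oxysterol sensing and cholesterol handling were counted from a list of 21, of which 20 were tested. SGC0946 raised 10 and lowered 2 in sgUTX cells (median log2 fold change 0.23) and raised 12 and lowered 2 in sgLuc cells (median 0.45), beside 17.4% and 24.7% of all genes higher. In sgUTX against sgLuc cells, 2 were higher and 13 lower with SGC0946 (median -0.64), and 4 were higher and 11 lower with DMSO (median -0.60), where 29.3% and 32.3% of all genes were lower. RXRA, the partner of LXR on DNA, averaged 64.7 ± 8.38 CPM in sgUTX and 204 ± 0.200 CPM in sgLuc cells with SGC0946 (SD, n = 4 and 2), a log2 fold change of -1.66 (edgeR adjusted p = 3.54e-09). SGC0946 raised RXRA in both, by 0.99 in sgUTX cells (edgeR adjusted p = 1.22e-06) and by 1.25 in sgLuc cells (edgeR adjusted p = 1.20e-06). MYLIP, the LXR target that degrades the LDL receptor, was lower in sgUTX cells with DMSO, at 20.05 ± 1.01 CPM against 84.9 ± 5.94 CPM in sgLuc cells (log2 fold change -2.08, edgeR adjusted p = 1.98e-15). Unlike ABCA1 and ABCG1, MYLIP fell with SGC0946 in sgLuc cells (log2 fold change -0.997, edgeR adjusted p = 1.42e-08). NPC2, which lifts cholesterol out of lysosomes, was lower in sgUTX cells with SGC0946 (-1.63, edgeR adjusted p = 1.95e-11) and with DMSO (-1.48, edgeR adjusted p = 1.99e-10). SMPDL3A, a phosphodiesterase of macrophages, rose by 1.61 with SGC0946 in sgLuc cells (edgeR adjusted p = 2.90e-07).

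**Figure D3:**
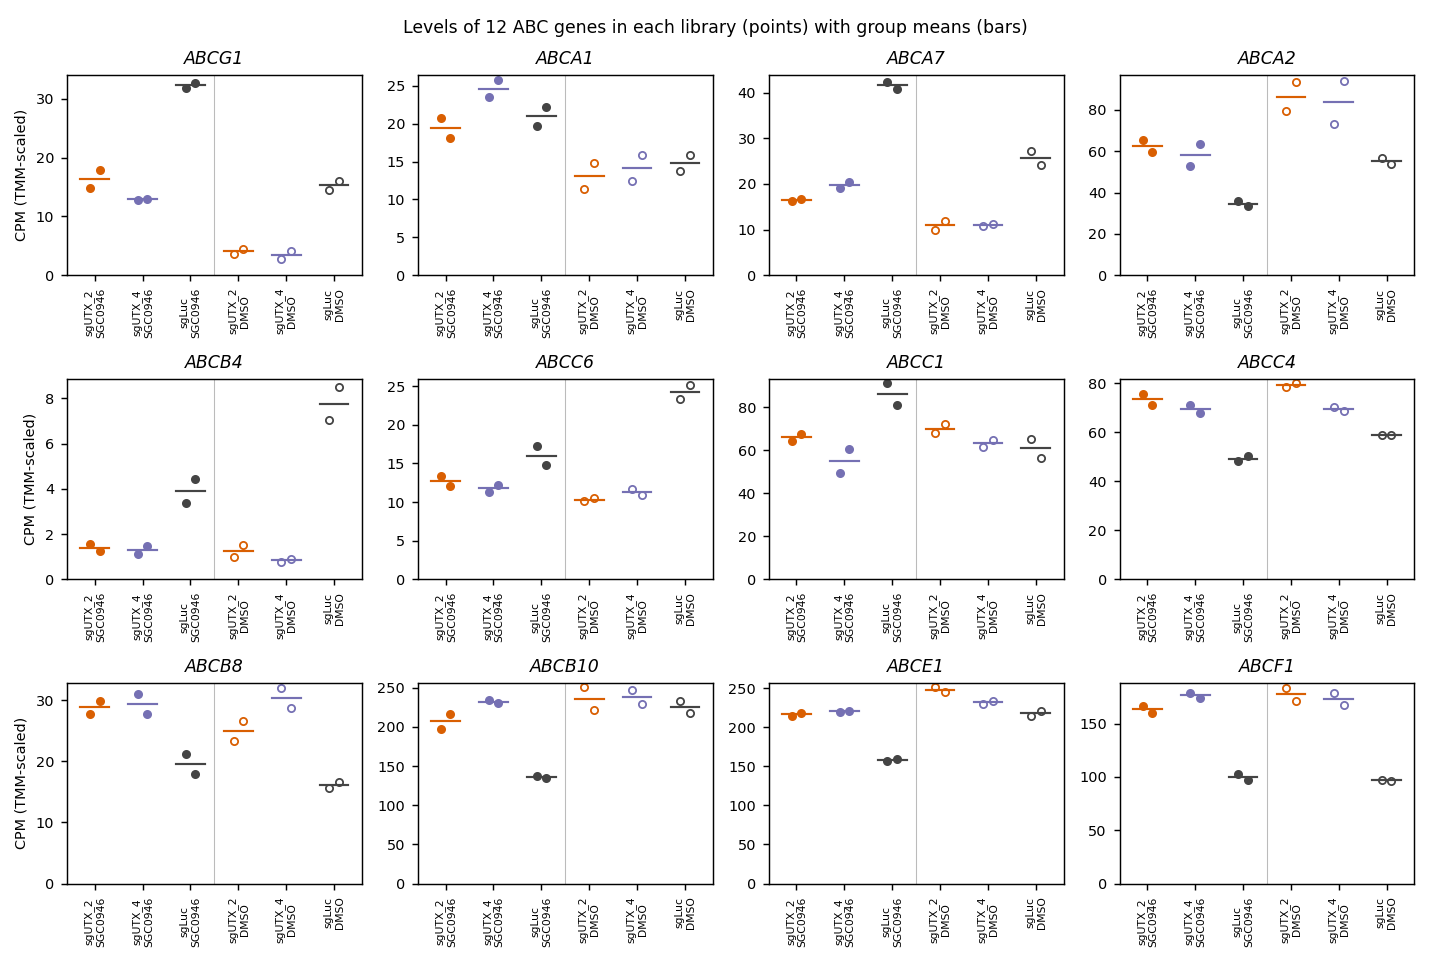
TMM-scaled CPM (vertical axes, each starting at 0) of 12 ABC genes in the 12 libraries. Points are libraries, filled for SGC0946 and open for DMSO, and bars are means of the 2 libraries of a group. ABCG1 and ABCA7 lie lower in all sgUTX libraries than in sgLuc libraries of the same treatment, ABCF1 lies higher, and ABCA1 lies higher in all SGC0946 libraries than in all DMSO libraries.

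Drug efflux pumps did not share a direction. Of the 7 tested, SGC0946 raised 3 in sgUTX cells (median log2 fold change 0.15), where 17.4% of all genes were higher and 16.4% lower, and raised 2 and lowered 2 in sgLuc cells (median 0.33), where 24.7% were higher and 24.2% lower. None of the 3 raised in sgUTX cells, ABCC2, ABCC5 and ABCG2, kept its call under every alternative. Those of ABCC2 and ABCC5 were lost with either guide alone, and ABCG2 passed the filter on low counts through the treated sgUTX libraries only. In sgUTX against sgLuc cells, 3 were higher and 2 lower with SGC0946 (median 0.19), and 3 were higher and 1 lower with DMSO (median 0.34), beside 27.7% of all genes higher and 29.3% lower with SGC0946 and 28.7% and 32.3% with DMSO. Set beside the lipid exporters, whose medians were 0.70 and 0.76 with the inhibitor, the pumps had smaller medians, a description of 7 and 8 genes with no test of the difference. Summed over the group, the pumps had 250.3 to 263 CPM in sgUTX and 238 to 262 CPM in sgLuc cells with SGC0946, which overlap, and 246 to 268 and 213 to 222 CPM with DMSO.

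ABCC1 (ENSG00000103222, chr16:15949577-16143074, plus strand), the pump of glutathione conjugates and leukotriene C4, had 64.3 and 67.6 CPM in sgUTX_2, 49.4 and 60.4 CPM in sgUTX_4 and 91.1 and 81.2 CPM in sgLuc cells with SGC0946. With DMSO the values were 68.2 and 71.9 CPM in sgUTX_2, 61.6 and 64.8 CPM in sgUTX_4 and 65.4 and 56.4 CPM in sgLuc cells. The treated sgLuc libraries stood above the other 10. SGC0946 raised it in sgLuc cells by 0.50 on the log2 scale (SE 0.12, edgeR adjusted p = 0.00237), while the value in sgUTX cells was -0.14 and did not pass (SE 0.084, edgeR adjusted p = 0.225). The difference of the responses was -0.64 (SE 0.15, edgeR adjusted p = 0.00263). With SGC0946 ABCC1 was 1.42-fold lower in sgUTX cells (-0.51, SE 0.10, edgeR adjusted p = 0.000338), and with DMSO the difference of 0.13 did not pass (SE 0.11, edgeR adjusted p = 0.307).

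ABCC4 (ENSG00000125257, chr13:95019829-95301475, minus strand), which exports cyclic nucleotides and nucleoside analogues, had 75.6 and 71.2 CPM in sgUTX_2, 71.1 and 67.99 CPM in sgUTX_4 and 48.4 and 50.2 CPM in sgLuc cells with SGC0946. The DMSO values were 78.3 and 80.3 CPM in sgUTX_2, 70.2 and 68.9 CPM in sgUTX_4 and 58.8 and 58.7 CPM in sgLuc cells. Every sgUTX library stood above every sgLuc library. It was higher in sgUTX cells by 0.54 with SGC0946 (SE 0.074, edgeR adjusted p = 1.76e-06) and by 0.34 with DMSO (SE 0.074, edgeR adjusted p = 0.000354). SGC0946 gave -0.06 in sgUTX cells (SE 0.058, edgeR adjusted p = 0.477), which did not pass, and -0.25 in sgLuc cells (SE 0.086, edgeR adjusted p = 0.0176). The sgLuc call was lost with library-size scaling, with no filter and without either sgLuc DMSO library or the first sgLuc SGC0946 library.

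ABCC6 (ENSG00000091262, chr16:16148928-16223522, minus strand), mutated in pseudoxanthoma elasticum, has the near copies ABCC6P1 and ABCC6P2, between which reads could be split, so its level is uncertain. It had 13.4 and 12.1 CPM in sgUTX_2, 11.3 and 12.3 CPM in sgUTX_4 and 17.3 and 14.7 CPM in sgLuc cells with SGC0946. Libraries with DMSO had 10.2 and 10.5 CPM in sgUTX_2, 11.7 and 10.9 CPM in sgUTX_4 and 23.3 and 25.2 CPM in sgLuc cells. Both sgLuc pairs lay above all sgUTX libraries. With DMSO it was 2.24-fold lower in sgUTX cells (-1.17, SE 0.11, edgeR adjusted p = 4.04e-09), and with SGC0946 1.30-fold lower (-0.38, SE 0.11, edgeR adjusted p = 0.00608). The SGC0946 call was lost under library-size scaling and without the first sgLuc SGC0946 library. The inhibitor lowered ABCC6 in sgLuc cells (-0.60, SE 0.13, edgeR adjusted p = 0.000441), gave 0.18 in sgUTX cells (SE 0.094, edgeR adjusted p = 0.141), and the responses differed by 0.79 (SE 0.16, edgeR adjusted p = 0.000490).

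ABCG2 (ENSG00000118777, chr4:88090264-88231322, minus strand), the breast cancer resistance protein, was near the limit of detection. It had 11 and 20 counts in sgUTX_2, 8 and 12 counts in sgUTX_4 and 4 and 5 counts in sgLuc cells with SGC0946. With DMSO the values were 2 and 3 counts in sgUTX_2, 8 and 1 counts in sgUTX_4 and 1 and 0 counts in sgLuc cells. In sgUTX cells the treated libraries lay above the DMSO libraries, at 0.453 to 0.821 CPM against 0.0540 to 0.441 CPM. The log2 fold change was 1.73 (SE 0.54, edgeR adjusted p = 0.0150), a call lost without the second sgUTX_4 DMSO library. By guide, the rise was called in sgUTX_2 cells (5.445-fold, from 2 and 3 counts) and not in sgUTX_4 cells. ABCG2 passed the filter on low counts through the treated sgUTX libraries only, which favored a rise. The sgUTX over sgLuc value with SGC0946, 1.19, did not pass the test (SE 0.66, edgeR adjusted p = 0.128), and in sgLuc cells with DMSO there was 1 count in all. Of the other pumps, ABCC5, which carries cyclic nucleotides, had 87.7 to 92.7 CPM in sgUTX and 74.1 to 83.1 CPM in sgLuc cells with SGC0946, against 75.4 to 83.0 and 56.8 to 60.0 CPM with DMSO, and was called higher in sgUTX each time. Without the second sgLuc SGC0946 library its SGC0946 call was lost (log2 fold change 0.11, edgeR adjusted p = 0.301). ABCC10 lay between 11.9 and 21.3 CPM and ABCC2, the conjugate pump of liver, between 1.77 and 4.25 CPM over the 12 libraries.

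Genes that supply glutathione and its conjugates to the ABCC pumps were counted from a list of which 20 were tested. The sgUTX to sgLuc comparison called 7 higher and 9 lower with SGC0946 (80%, background 56.9%), and 5 higher and 14 lower with DMSO (95%, background 61%). SGC0946 raised 8 and lowered 5 in sgUTX cells (65%, background 33.8%), and raised 4 and lowered 10 in sgLuc cells (70%, background 48.9%). SLC7A11, the cystine importer that feeds glutathione synthesis, averaged 154 ± 37.2 CPM in sgUTX and 46.3 ± 5.48 CPM in sgLuc cells with SGC0946 (log2 fold change 1.73, edgeR adjusted p = 0.000548), and 216 ± 41.5 and 33.4 ± 5.58 CPM with DMSO (2.69, edgeR adjusted p = 4.12e-05, SD, n = 4 and 2). CHAC1, which breaks glutathione down, was higher in sgUTX cells by 3.48 with SGC0946 (edgeR adjusted p = 2.27e-14) and by 2.63 with DMSO (edgeR adjusted p = 8.56e-14). It was lower with the inhibitor in sgUTX cells (-1.04, edgeR adjusted p = 1.47e-09) and in sgLuc cells (-1.89, edgeR adjusted p = 5.60e-08). GGT5, which cleaves leukotriene C4 after ABCC1 has exported it, averaged 0.752 ± 0.241 CPM in sgUTX and 8.81 ± 0.774 CPM in sgLuc cells with SGC0946 (log2 fold change -3.54, edgeR adjusted p = 1.17e-10). Among 15 regulators with known ABC targets, 4 were higher and 5 lower in sgUTX cells with SGC0946 (60%, background 56.9%) and 4 each way with DMSO (53.3%, background 61%), which lies near the background and is no result about these regulators. PPARD, a fatty acid receptor, was lower with SGC0946 (-1.59, edgeR adjusted p = 3.06e-12) and with DMSO (-1.01, edgeR adjusted p = 1.06e-08).

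ABCB4 (ENSG00000005471, chr7:87401697-87480435, minus strand), the phosphatidylcholine exporter of bile, lies beside ABCB1 and was the most strongly lowered ABC gene with DMSO among those called. Its level was 1.56 and 1.23 CPM in sgUTX_2, 1.13 and 1.48 CPM in sgUTX_4 and 3.38 and 4.44 CPM in sgLuc cells with SGC0946. The DMSO values were 0.982 and 1.53 CPM in sgUTX_2, 0.772 and 0.918 CPM in sgUTX_4 and 7.03 and 8.48 CPM in sgLuc cells. They stand for 20 to 35 counts per sgUTX library with SGC0946 and 112 and 113 counts in sgLuc libraries with DMSO. No sgUTX library reached any sgLuc library. It was 2.88-fold lower in sgUTX cells with SGC0946 (log2 fold change -1.53, SE 0.26, edgeR adjusted p = 2.39e-05) and 7.21-fold lower with DMSO (-2.85, SE 0.25, edgeR adjusted p = 1.24e-09). SGC0946 gave 0.34 in sgUTX cells (SE 0.25, edgeR adjusted p = 0.327), which did not pass, and lowered it in sgLuc cells (-0.98, SE 0.27, edgeR adjusted p = 0.00431). The responses differed by 1.32 (SE 0.37, edgeR adjusted p = 0.00735). Without the first sgLuc SGC0946 library the sgLuc response and the difference of responses were no longer called, and the sgLuc response was also lost without the second sgLuc DMSO library.

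Among transporters of organelles, calls with SGC0946 were all lower in sgLuc cells. Of the 8 tested, SGC0946 raised 2 and lowered 1 in sgUTX cells (median log2 fold change -0.02) and lowered 4 in sgLuc cells (median -0.33), where 24.2% of all genes were lower. One of these, ABCD4, was not called with DESeq2 (DESeq2 adjusted p = 0.0567), with library-size scaling (edgeR adjusted p = 0.134) or with no filter (edgeR adjusted p = 0.0939). It was also not called without the first sgLuc DMSO or the first sgLuc SGC0946 library (log2 fold change -0.23 and -0.24). In sgUTX against sgLuc cells 3 were higher with SGC0946 (37.5%, background 56.9%, median 0.18), and 2 were higher and 4 lower with DMSO (75%, background 61%, median -0.27). ABCB10 had 198 to 234 CPM in sgUTX and 135 to 137 CPM in sgLuc cells with SGC0946, against 221 to 250.4 and 217 to 233 CPM with DMSO, so that the treated sgLuc pair stood apart from the other 10 libraries. It was called for a difference of the responses. ABCB10 has the pseudogenes ABCB10P1, ABCB10P3 and ABCB10P4, which could take part of its reads.

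ABCB8, another mitochondrial member, had 27.7 to 31.1 CPM in sgUTX and 18.0 to 21.2 CPM in sgLuc cells with SGC0946, against 23.3 to 32.0 and 15.6 to 16.6 CPM with DMSO, and was called higher in sgUTX each time. ABCB9, the lysosomal peptide transporter, had 5.93 to 6.57 CPM in sgUTX and 4.65 to 4.82 CPM in sgLuc cells with SGC0946, against 3.69 to 4.21 and 5.85 to 6.59 CPM with DMSO. The sgUTX values lay above the sgLuc values with SGC0946 and below them with DMSO. It was called lower in sgUTX with DMSO, and the difference of responses was called. ABCB9 shares 24.5% of its exonic bases with genes on the opposite strand, and whether reads were counted by strand is not given in the sources used here.

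In peroxisomes, ABCD3, which takes in branched fatty acids, was called higher in sgUTX cells in both treatments, with 67.1 to 71.8 CPM in sgUTX and 49.2 to 53.1 CPM in sgLuc cells with SGC0946. ABCD4, of lysosomal cobalamin transport, stayed between 16.7 and 24.6 CPM. ABCD2 (ENSG00000173208, chr12:39550033-39619751, minus strand), a peroxisomal transporter of fatty acids, had 9 and 6 counts in sgUTX_2, 16 and 9 counts in sgUTX_4 and 9 and 13 counts in sgLuc cells with SGC0946. Libraries with DMSO had 1 and 6 counts in sgUTX_2, 0 and 1 counts in sgUTX_4 and 6 and 4 counts in sgLuc cells. With the guides pooled, it was raised by SGC0946 in sgUTX cells by 2.23 on the log2 scale (SE 0.65, edgeR adjusted p = 0.0106), although the lowest treated library (0.246 CPM) lay below the highest DMSO library (0.263 CPM). By guide, the rise was called in sgUTX_4 cells (20.2-fold, from 0 and 1 counts) and not in sgUTX_2 cells. ABCD2 passed the filter on low counts through libraries with SGC0946 only, which favored a rise. In sgLuc cells the value was 0.88 and did not pass (SE 0.78, edgeR adjusted p = 0.367).

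Among 21 genes of heme and iron-sulfur cluster synthesis, sgUTX against sgLuc cells gave 11 higher and 5 lower with SGC0946, where 27.7% of all genes were higher and 29.3% lower, and 8 higher and 7 lower with DMSO, where 28.7% were higher and 32.3% lower. SGC0946 raised 2 and lowered 3 in sgUTX cells (23.8%, background 33.8%), and raised 2 and lowered 8 in sgLuc cells (47.6%, background 48.9%). HMOX1, which breaks heme down, averaged 0.255 ± 0.102 CPM in sgUTX and 10.7 ± 1.93 CPM in sgLuc cells with SGC0946 (SD, n = 4 and 2), a log2 fold change of -5.38 (edgeR adjusted p = 2.28e-11). Of 24 tested genes of peroxisomal fatty acid oxidation, 6 were higher and 9 lower in sgUTX cells with SGC0946 (62.5%, background 56.9%), and 4 higher and 12 lower with DMSO (66.7%, background 61%). These total shares lie near the background and are no result about this list. By direction with DMSO, 50% were lower and 16.7% higher, beside 32.3% and 28.7% of all genes, a difference that was not tested. CAT, the catalase of peroxisomes, averaged 315 ± 24.7 CPM in sgUTX and 512 ± 10.8 CPM in sgLuc cells with SGC0946 (log2 fold change -0.70, edgeR adjusted p = 1.27e-06), and 209.9 ± 25.6 and 441 ± 2.37 CPM with DMSO (-1.07, edgeR adjusted p = 3.23e-09).

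The 4 soluble ABC genes were higher in sgUTX cells in both treatments. Each was called higher than in sgLuc cells with SGC0946 (median log2 fold change 0.62) and with DMSO (median 0.52). SGC0946 lowered 1 of them, ABCE1, in sgUTX and in sgLuc cells. Their summed level was 464 to 491 CPM in sgUTX and 315 to 322 CPM in sgLuc cells with SGC0946, against 495 to 521 and 377 to 389 CPM with DMSO, with no overlap in either treatment. Beside them, 27.7% of all genes were higher with SGC0946 and 28.7% with DMSO. Under library-size scaling each kept its direction, but that scaling moved sgUTX over sgLuc values up, so it could not turn them. The DMSO call of ABCF3 was lost without the first sgLuc DMSO library (log2 fold change 0.17, edgeR adjusted p = 0.150), without the second (0.22, edgeR adjusted p = 0.0558) and with the sgUTX_2 guide alone (0.16, edgeR adjusted p = 0.0722).

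ABCF1 (ENSG00000204574, chr6:30571376-30597179, plus strand), which binds initiation factor eIF2 and ribosomes, had 167 and 159.9 CPM in sgUTX_2, 179 and 174 CPM in sgUTX_4 and 103 and 96.8 CPM in sgLuc cells with SGC0946. With DMSO the values were 184 and 171 CPM in sgUTX_2, 178 and 168 CPM in sgUTX_4 and 97.3 and 96.5 CPM in sgLuc cells. The 8 sgUTX libraries lay above the 4 sgLuc libraries, and treated and DMSO values overlapped within each. It was 1.70-fold higher in sgUTX cells with SGC0946 (log2 fold change 0.77, SE 0.064, edgeR adjusted p = 6.61e-10) and 1.81-fold higher with DMSO (0.85, SE 0.065, edgeR adjusted p = 1.10e-10). The inhibitor gave -0.04 in sgUTX cells (SE 0.050, edgeR adjusted p = 0.534) and 0.04 in sgLuc cells (SE 0.073, edgeR adjusted p = 0.659), neither past the test.

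ABCE1 (ENSG00000164163, chr4:145097932-145129179, plus strand), the recycling factor, had 215 and 219 CPM in sgUTX_2, 219.6 and 221 CPM in sgUTX_4 and 157 and 159 CPM in sgLuc cells with SGC0946. The DMSO values were 252 and 244 CPM in sgUTX_2, 229.8 and 233 CPM in sgUTX_4 and 215 and 221 CPM in sgLuc cells. The treated sgLuc pair was the lowest. It was higher in sgUTX cells by 0.47 with SGC0946 (SE 0.057, edgeR adjusted p = 2.90e-07) and by 0.14 with DMSO (SE 0.057, edgeR adjusted p = 0.0382), the DMSO call being lost without either sgLuc DMSO library, without either sgUTX_2 DMSO library and with the sgUTX_4 guide alone. SGC0946 lowered it in sgUTX cells (-0.14, SE 0.046, edgeR adjusted p = 0.0248) and in sgLuc cells (-0.47, SE 0.065, edgeR adjusted p = 3.08e-06), and these responses differed (0.33, SE 0.080, edgeR adjusted p = 0.00237). The sgUTX response was lost without either sgUTX_2 DMSO library, without the first sgUTX_2 SGC0946 library and with the sgUTX_4 guide alone. ABCE1 shares 11.9% of its exonic bases with genes on the opposite strand.

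ABCF2 had 30.3 to 31.3 CPM in sgUTX and 13.9 to 17.0 CPM in sgLuc cells with SGC0946, against 29.8 to 34.8 and 15.1 to 18.9 CPM with DMSO. It shares 45.8% of its exonic bases with a clone-named gene of the same strand and has the pseudogenes ABCF2P1 and ABCF2P2, so its level is uncertain. ABCF3 had 54.8 to 61.1 CPM in sgUTX and 45.3 to 45.9 CPM in sgLuc cells with SGC0946, against 56.2 to 61.0 and 50.2 to 52.2 CPM with DMSO. Of 21 tested partners in ribosome recycling and eIF2 control, 15 were higher and 3 lower in sgUTX cells with SGC0946 (median log2 fold change 0.35), and 12 higher and 4 lower with DMSO (median 0.31), where 27.7% and 28.7% of all genes were higher. SGC0946 raised 2 and lowered 9 of them in sgUTX cells, and raised 4 and lowered 10 in sgLuc cells, where 16.4% and 24.2% of all genes were lower. GCN1, which senses collided ribosomes, was higher in sgUTX cells by 0.76 with SGC0946 (edgeR adjusted p = 5.17e-09) and by 0.73 with DMSO (edgeR adjusted p = 9.86e-09). GSPT1, the release factor eRF3, was higher by 0.75 (edgeR adjusted p = 4.72e-10) and by 0.65 (edgeR adjusted p = 3.54e-09) in the same comparisons.

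The response to SGC0946 differed between sgUTX and sgLuc cells for 10 of the 28 genes (35.7%), near the 34.8% of all genes called. It was more positive in sgUTX cells for 8 (background 18.3%) and more negative for 2 (16.5%), and ABCB4 and ABCB9 differed by at least 2-fold (background 8.86%). Among the 8 were ABCA3, ABCB4, ABCB9, ABCB10, ABCC6, ABCE1 and ABCG1, and the 2 were ABCC1 and ABCC5. The call of ABCA3 was lost without the second sgLuc DMSO library or either sgLuc SGC0946 library, that of ABCB4 without the first sgLuc SGC0946 library, and that of ABCC5 without the second sgLuc DMSO or the first sgLuc SGC0946 library. They act in different places, as exporters of lipid, mitochondrial transporters, conjugate pumps and a ribosome factor. With library-size scaling 7 were more positive and 3 more negative, and 40.6% of calls over all genes were positive (52.6% with TMM).

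**Figure D4:**
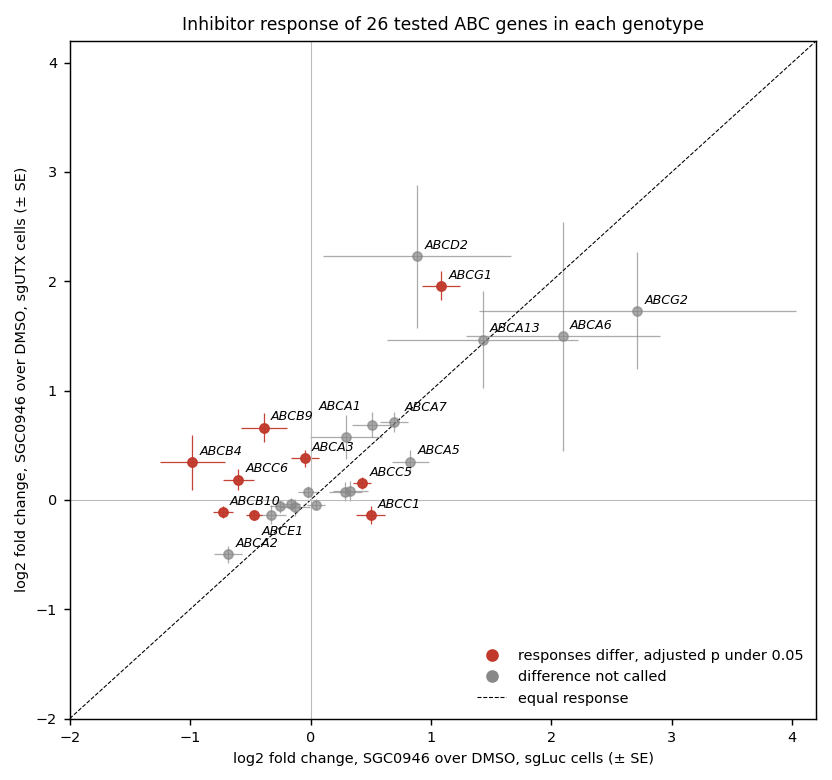
Log2 fold change with SGC0946 in sgUTX cells (vertical axis) against that in sgLuc cells (horizontal axis) for 26 tested ABC genes, with standard errors. Red genes differed in response and the dashed line marks equal responses. ABCG1 lies above the line at 1.96 against 1.08, and ABCC1 below it at -0.14 against 0.50.

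Few ABC genes differed between the sgUTX guides past the test. In sgUTX_4 against sgUTX_2 cells, ABCA13 alone was called with DMSO, higher by 2.23 on the log2 scale (SE 0.58, edgeR adjusted p = 0.0233), 1 of 28 beside a background of 3.49%, with 1.72% of all genes higher, 1.77% lower and 0.432% past 2-fold. That call was lost without the second sgUTX_2 or the first sgUTX_4 DMSO library. With SGC0946 edgeR called 0 of 28 (background 3.01%, with 1.61% higher, 1.4% lower and 0.266% past 2-fold), and DESeq2 also called 0. At an unadjusted p under 0.05 edgeR had 6. The share of all genes at that unadjusted limit was not taken, so this count is no result about guides. For ABCG1, sgUTX_4 minus sgUTX_2 was -0.34 with SGC0946 (SE 0.13) and -0.25 with DMSO (SE 0.20), neither past the test, although KDM6A itself lay on opposite sides of sgLuc with these guides.

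ABC proteins that carry other symbols were looked at beside the family. TAP2, of the peptide pump for antigen presentation, averaged 29.4 ± 1.57 CPM in sgUTX and 14.5 ± 0.804 CPM in sgLuc cells with SGC0946 (log2 fold change 1.02, edgeR adjusted p = 3.49e-09), and 36.5 ± 1.95 and 18.8 ± 0.978 CPM with DMSO (0.96, edgeR adjusted p = 6.17e-09, SD, n = 4 and 2). Its partner TAP1 was lower in sgUTX cells, by log2 fold changes of -0.17 with SGC0946 (edgeR adjusted p = 0.0212) and -0.31 with DMSO (edgeR adjusted p = 0.000149). CFTR had 1 count in all libraries together.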

How the data were processed

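RNA-seq counts per gene were deposited by the authors as 1 table of 58735 gene identifiers and 12 libraries. Per the labels' protocols, total RNA was made into libraries with a NEBNext kit and sequenced as read pairs. STAR 2.5.1b and hg19 are named, per the submitters' processing notes, while the identifiers in the deposited counts are those of GENCODE 29, from which the GRCh38 coordinates, symbols and exon lengths printed here were taken. For the counting program and for how strand and multi-mapping reads were treated, the entry is: not given in the sources used here.

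The counts were scaled with TMM and tested with edgeR 4.0.16 (R 4.3.3, filterByExpr, robust quasi-likelihood fit, Benjamini-Hochberg over 15060 genes, called at 0.05). The sgUTX guides were pooled as 4 libraries per treatment, and a fit with 6 groups compared the guides. CPM values are TMM-scaled, RPKM is that CPM per kilobase of exon, and intervals and limits cover counting error only. The fit was tested on simulated data. Alternatives were DESeq2 1.42.0, RLE or library-size scaling, a stricter or no filter on low counts, single guides, a replicate block and leaving out each library. ABC genes described in full were ABCA1, ABCG1, ABCB1, ABCC1, ABCC4, ABCG2, ABCE1 and ABCF1, and any called with an absolute log2 fold change of at least 1 in 1 of the 4 comparisons of guide or inhibitor. For gene lists, examples came from up to 4 called genes per comparison with the largest change. Genes and lists were chosen with earlier results of these data known. No 2 libraries agreed within sampling noise, and all 12 were kept. Results for some genes are not reported here, although counts over all genes tested include them.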

Additional observations from a re-analysis of the deposited data

Results flagged for a closer look

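The log2 response to SGC0946 in sgUTX cells minus that in sgLuc cells passed edgeR's test of the difference, adjusted over all genes, for 10 ABC genes. Among those with a positive difference were ABCB4 at 1.32 (edgeR adjusted p = 0.0073), ABCB9 at 1.05 (0.0011), ABCG1 at 0.88 (0.0021), ABCC6 at 0.79 (0.00049), ABCB10 at 0.62 (4.1e-05), ABCA3 at 0.43 (0.018) and ABCE1 at 0.33 (0.0024). It was negative for ABCC1 at -0.64 (edgeR adjusted p = 0.0026) and ABCC5 at -0.27 (0.026). The difference for ABCB4 was 1.14 without the first sgLuc SGC0946 library (edgeR adjusted p = 0.0515). ABCA3 lost its call under 5 of the alternatives, among them library-size scaling (0.34, edgeR adjusted p = 0.0628), and ABCC5 under 3, among them the sgUTX_2 guide alone (-0.25, edgeR adjusted p = 0.0609). No cause of these differences was tested.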

How the results depend on the processing

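The number of ABC genes called for SGC0946 in sgUTX cells was 14 (50%, background 33.8%), and 8 with the sgUTX_4 libraries only (29.6%, background 28.4%). Leaving out 1 library gave 9 to 14 there, the lowest without the first sgUTX_2 DMSO library, and 12 to 17 for SGC0946 in sgLuc cells, 15 to 18 and 16 to 20 for sgUTX against sgLuc with DMSO and with SGC0946, and 7 to 11 for the difference of responses. Between guides, the 1 call with DMSO became 0 with DESeq2, which gave ABCA13 no adjusted p, and 0 to 1 when a library was left out. With SGC0946 no call became 1, ABCC1, with no filter, and 0 to 1 when a library was left out. Among called values and those of ABCA1, signs changed for ABCA1, sgUTX over sgLuc, with DMSO under library-size scaling (0.16) and with SGC0946 in the sgUTX_2 guide alone (-0.11) and without the second sgUTX_4 (-0.021) or the first sgLuc SGC0946 library (-0.020), where leaving out 1 library gave -0.021 to 0.15, and for ABCD4 with DMSO under library-size scaling (0.015). Of 63 uncalled values, those of ABCA1 included, 23 changed sign, such as the ABCA7 difference of responses (-0.10 to 0.18), ABCF1 with SGC0946 in sgUTX cells (-0.11 to 0.043) and ABCF2 in sgLuc cells (-0.29 to 0.033). The cause was not tested. Calls kept under every alternative that tested the gene numbered 14 of 18 (sgUTX against sgLuc, DMSO), 15 of 19 (SGC0946), 7 of 14 (SGC0946 in sgUTX cells), 11 of 16 (in sgLuc cells) and 7 of 10 (difference). An alternative whose filter dropped a gene could not end its call. ABCA6 (sgUTX against sgLuc, SGC0946) and ABCD2 (SGC0946 in sgUTX cells) count as kept. Their highest levels were 0.832 and 0.907 CPM, so the stricter filter left both untested. Each passed the main filter only through groups in which it was high. With the replicate number as a block the ABC counts were the same, 18, 19, 14, 16 and 10, and 9072 genes in place of 9188 were called between sgUTX and sgLuc cells with DMSO. Libraries of the same number shared no deviation (correlations of -0.207 to 0.134 over 15 pairs of groups), so the numbers were not taken as pairs. Genes with few counts, such as ABCG2, are limited by depth.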
